A study of Mus musculus with 143 samples.

Results

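The 10 genes described here code for enzymes and partners that write or erase methyl groups on lysines 4 and 36 of histone H3 in mouse oocytes. They were chosen by name, as Kmt2a, Kmt2b, Kmt2d, Setd1a, Setd1b and Cxxc1 for writing on lysine 4 (H3K4), Kdm1a, Kdm1b and Kdm5b for erasing there, and Setd2 for writing on lysine 36 (H3K36). All 10 were found by gene ID among 55573 IDs of the poly(A) count files and 55487 IDs of the RiboMinus count files, and all 10 passed the filter on low counts in every fit. Oocytes of control mice and of mice with a conditional knockout (cKO) of the exosome ribonucleases Dis3 or Exosc10, or a double conditional knockout (dcKO), were sequenced singly, 71 of them from poly(A) RNA and 48 by random priming once ribosomal RNA had been depleted (RiboMinus). Poly(A) groups were immature oocytes with an intact nucleus (germinal vesicle, GV), the 3 h stage named GV3h in the labels, and ovulated metaphase II eggs (MII) taken from oviducts after superovulation, each as control (8 libraries) and as Dis3 cKO (15, 16 and 16 libraries). RiboMinus groups of 8 libraries each were adult GV control and adult GV Dis3 cKO and, from postnatal day 20 (p20), a control group and 3 knockout groups, of Dis3, of Exosc10 and the dcKO. Ovarian GV and 3 h oocytes were kept in M2 medium, and the mutant mice were made with CRISPR/Cas9, per the labels' protocols. The Cre driver, the alleles that controls carry, the strain, the age of adults and the animal behind each oocyte are not given in the sources used here, so p-values measure only the spread between these libraries.

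H3K4 trimethylation marks promoters and H3K36 trimethylation is laid down along transcribed gene bodies by SETD2. In growing oocytes KMT2B spreads H3K4 trimethylation over broad untranscribed regions, KDM1B removes H3K4 methylation so that maternal imprints can form, and SETD2 directs the DNA methyltransferase DNMT3A to transcribed genes. CXXC1 binds unmethylated CG dinucleotides and brings the SETD1A and SETD1B enzymes to CG-rich promoters, while KMT2D mainly places single methyl groups on enhancers and KDM1A and KDM5B erase H3K4 marks.

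The promoters of Kmt2a, Kdm1b and Setd1a are shown because CUT&Tag peaks near annotated starts, described after the RNA results, were found at these 3 members in more than 1 peak list of a group. Each line gives 250 bases before and 50 bases after an annotated start from the RefSeq promoter table, 5′ to 3′ on the gene's strand, on build GRCm38.p6, and capitals mark CG dinucleotides, which read the same on both strands. For Kmt2a and Kdm1b this start lies inside the gene span given here, not at its edge. A count of CG describes the window and shows no binding.
Kmt2a: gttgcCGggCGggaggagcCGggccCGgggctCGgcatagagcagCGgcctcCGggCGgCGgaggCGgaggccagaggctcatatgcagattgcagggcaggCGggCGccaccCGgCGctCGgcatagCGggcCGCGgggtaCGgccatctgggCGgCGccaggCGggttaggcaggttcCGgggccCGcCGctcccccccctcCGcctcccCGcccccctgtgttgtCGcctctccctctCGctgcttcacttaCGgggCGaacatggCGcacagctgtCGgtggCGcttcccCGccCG
Kdm1b: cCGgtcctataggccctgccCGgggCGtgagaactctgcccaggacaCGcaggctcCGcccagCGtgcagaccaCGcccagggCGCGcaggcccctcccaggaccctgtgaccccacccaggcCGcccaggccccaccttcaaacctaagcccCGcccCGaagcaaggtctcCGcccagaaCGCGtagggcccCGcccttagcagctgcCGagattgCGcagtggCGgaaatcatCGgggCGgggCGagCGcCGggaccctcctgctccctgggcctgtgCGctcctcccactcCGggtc
Setd1a: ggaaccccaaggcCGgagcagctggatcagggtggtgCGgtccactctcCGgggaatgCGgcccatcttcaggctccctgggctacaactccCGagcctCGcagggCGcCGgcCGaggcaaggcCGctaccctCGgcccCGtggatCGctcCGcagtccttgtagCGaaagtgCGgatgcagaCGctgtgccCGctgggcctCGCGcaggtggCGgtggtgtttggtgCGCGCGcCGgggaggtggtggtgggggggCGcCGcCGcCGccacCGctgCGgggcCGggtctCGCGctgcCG
The windows lie at chr9:44881240-44881539 (minus strand) for Kmt2a, at chr13:47043249-47043548 (plus strand) for Kdm1b and at chr7:127777139-127777438 (plus strand) for Setd1a. Kmt2a held 36 CG dinucleotides in 300 bases, Kdm1b 26 and Setd1a 35. The 4 other members with an entry held 27 (Kmt2d), 29 (Kdm1a), 17 (Kdm5b) and 38 (Setd2). The median of 32851 promoters of this length was 7, and 94.6% of them held at least 1 CG. The member with the fewest, Kdm5b, had at least as many as 70.3% of all promoters, and Setd2 had at least as many as 95.6%. Kmt2b, Setd1b and Cxxc1 had no entry.

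Between 4843964 and 15412200 counts fell on genes in each poly(A) library, and between 8492102 and 35429028 in each RiboMinus library. Dis3 fell in all 5 comparisons of a Dis3 cKO group with its control and in dcKO, with log2 fold changes from -3.63 to -2.18, and Exosc10 fell by 5.22 in Exosc10 cKO and by 4.01 in dcKO on the log2 scale. All 11 oocyte markers, such as Gdf9 and Zp3, were above 0 in every group, with median summed levels, here and for the other marker lists in CPM without TMM scaling, of at least 9541 CPM; their sums were 13574 (range 10809.7 to 14827) in p20 control and 17548 (range 15355 to 18459) in dcKO, without overlap. Summed levels of the 11 granulosa and cumulus markers had medians of 63.9 to 169.9 CPM and were 125 (range 95.4 to 200.3) in GV control against 92.8 (range 75.6 to 182) in GV Dis3 cKO. At MII they were 93.4 (range 85.9 to 129) in control, with all 11 markers above 0, against 63.9 (range 51.7 to 84) in Dis3 cKO, with Foxl2, Inha, Hsd17b1 and Amhr2 at 0 in all libraries; these ranges did not overlap, and in the 6 other comparisons of a knockout with its control they did. Foxl2 and Inha were at 0 in some MII controls too, with highest values of 0.679 and 19.7 CPM. By gene, Cyp19a1 had a mean of 54 CPM in MII control and 24.4 CPM in Dis3 cKO and Kitl 14.6 and 8.98 CPM, while Nr5a2 had 26 and 30.9 CPM, so the sum did not stand for markers that were all lower. Cyp19a1 ranges were also lower without overlap in Dis3 cKO at GV (9.93 to 25.5 against 31.2 to 47.7 CPM) and GV3h (4.61 to 21.2 against 25.7 to 56.2 CPM) and in dcKO (1.24 to 9.46 against 18.7 to 36 CPM). Nr5a2 means were higher than in control in these groups, at 52.1 against 45 CPM, 43.5 against 35.9 CPM and 129.7 against 79.2 CPM. Those of Kitl were 13.5 against 13.6 CPM, 12.9 against 9.86 CPM and 23.6 against 26.9 CPM. The part of these markers in the results was not tested. Theca and stroma markers (5 genes) and leukocyte and erythroid markers (5 genes) had median sums of at most 8.31 and 1.85 CPM. Library 15 of MII Dis3 cKO stood apart, with 14.4 gene counts per count of the added ERCC RNAs where the group's median was 53.3, and library 16 of GV3h Dis3 cKO lay closer to library 15 of its group than any other pair of the group did, so results that turn on them are given with and without them. RiboMinus titles carry tags, 2 per group with 4 libraries each, whose meaning the labels do not give; oocytes that share a tag may share a source.

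In each comparison of a knockout with its control 0 to 6 of the 10 members passed, and the direction differed from gene to gene. Counts per 1e+06 after scaling by the trimmed mean of M-values (TMM CPM) are the level used throughout, and a member is said to rise or fall where edgeR's quasi-likelihood test gave a Benjamini-Hochberg adjusted p under 0.05 over all genes. At GV stage 0 of 10 members passed for Dis3 cKO in poly(A) data, beside 21.9% (13.6% higher, 8.33% lower) of 17389 genes. There 2 members, Kmt2d and Cxxc1, had an unadjusted p under 0.05, and DESeq2 called 0. Other settings called 1 with ERCC scaling (beside 20.6% of all genes), 2 with only the groups compared (27.3%) and 1 without GV control library 1 (20.6%). At GV3h 6 of 10 passed, beside 38.6% (22.9% higher, 15.7% lower) of all genes: Kmt2a, Setd1b, Kdm1b and Setd2 rose, and Kmt2d and Cxxc1 fell. In MII eggs Setd1b and Cxxc1 rose and 8 members did not pass, beside 42.1% (27.3% higher, 14.8% lower) of all genes. In adult RiboMinus data Kmt2b, Kmt2d and Setd1a fell, 3 of 10 beside 28.1% (15.7% higher, 12.4% lower) of 15334 genes. At p20 0 of 10 passed for Dis3 cKO beside 7.37% (3.61% higher, 3.76% lower) of 15882 genes, where Kmt2a and Kdm5b had an unadjusted p under 0.05 and DESeq2 called 0. ERCC scaling called 1 (beside 6.09% of all genes), and so did the fit without Dis3 cKO library 1_4 (6.35%). Exosc10 loss gave 2 members that fell, Kdm1b and Setd1b, beside 7.45% (3.95% higher, 3.50% lower) of all genes. The dcKO gave 4 members beside 53.7% (26.6% higher, 27.1% lower) of all genes, with Setd1b higher and Cxxc1, Kmt2d and Setd2 lower. The members' median log2 fold change was 0.05 at GV, 0.15 at GV3h, -0.05 at MII, -0.15 in adult RiboMinus data, -0.09 in p20 Dis3 cKO, -0.09 in Exosc10 cKO and 0.13 in dcKO. For all genes the medians were 0.04, 0.07, 0.16, 0.03, 0.00, 0.01 and -0.01. The 3 comparisons at p20 share 1 set of 8 controls. The balance of directions over all genes depended on the scaling: of the genes called, 62% were higher with TMM and 35.3% with ERCC scaling at GV, 64.8% were higher with TMM and 89.7% with ERCC scaling at MII, 55.9% were higher with TMM and 10.2% with ERCC scaling in adult Dis3 cKO and 49% were higher with TMM and 12.8% with ERCC scaling in p20 Dis3 cKO.

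**Figure D1:**
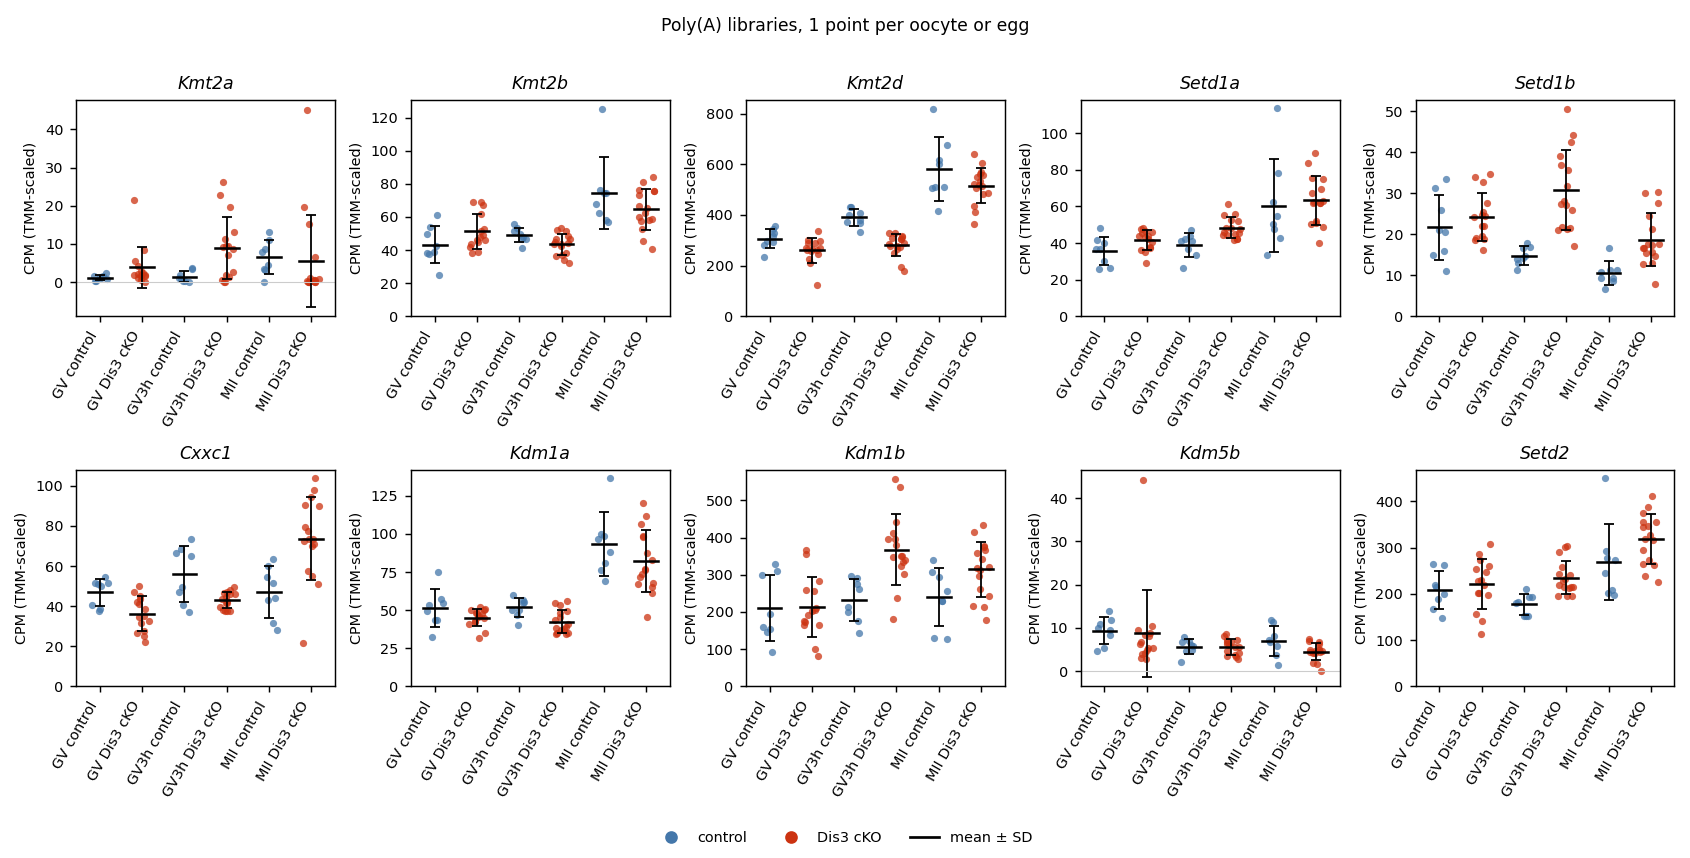
Levels of the 10 members in poly(A) libraries (CPM on the vertical axes, TMM-scaled), with 1 point per oocyte or egg, the mean as a line and the SD as error bars, for control and Dis3 cKO at GV, GV3h and MII. Setd1b and Kdm1b of the GV3h Dis3 cKO group sit mostly above their control, Kmt2d below it, and Kmt2a is spread from 0 to 26.1 CPM.

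**Figure D2:**
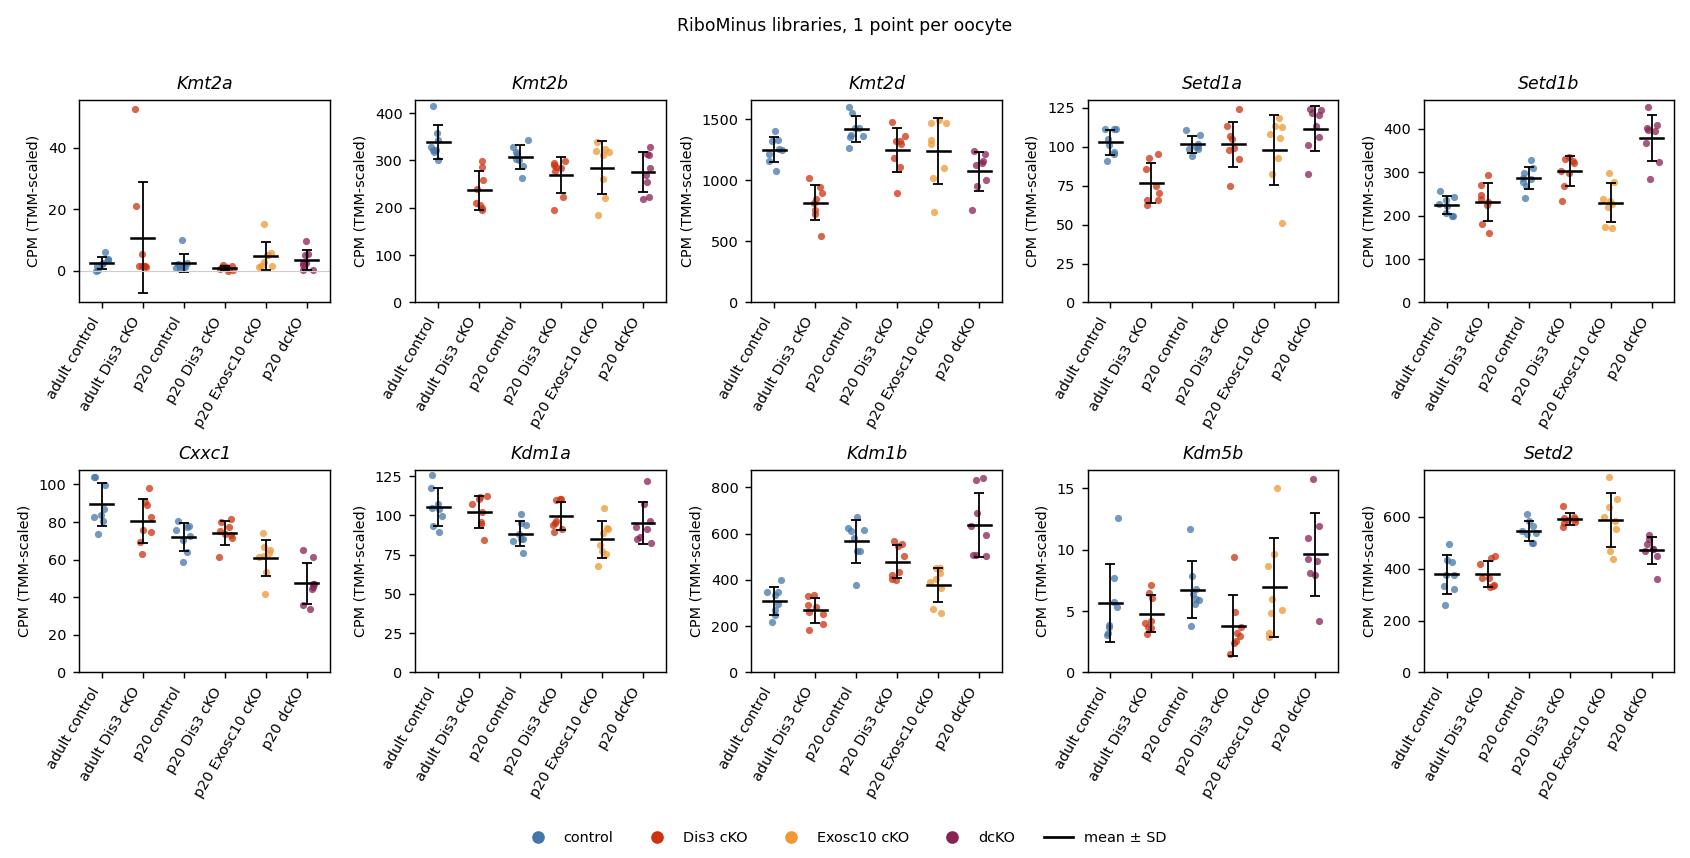
Levels of the 10 members in RiboMinus libraries (CPM on the vertical axes, TMM-scaled), with 1 point per oocyte, the mean as a line and the SD as error bars, for 2 adult and 4 p20 groups. Kmt2b and Kmt2d of adult Dis3 cKO lie below all 8 adult controls, and Setd1b is highest in p20 dcKO.

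**Figure D3:**
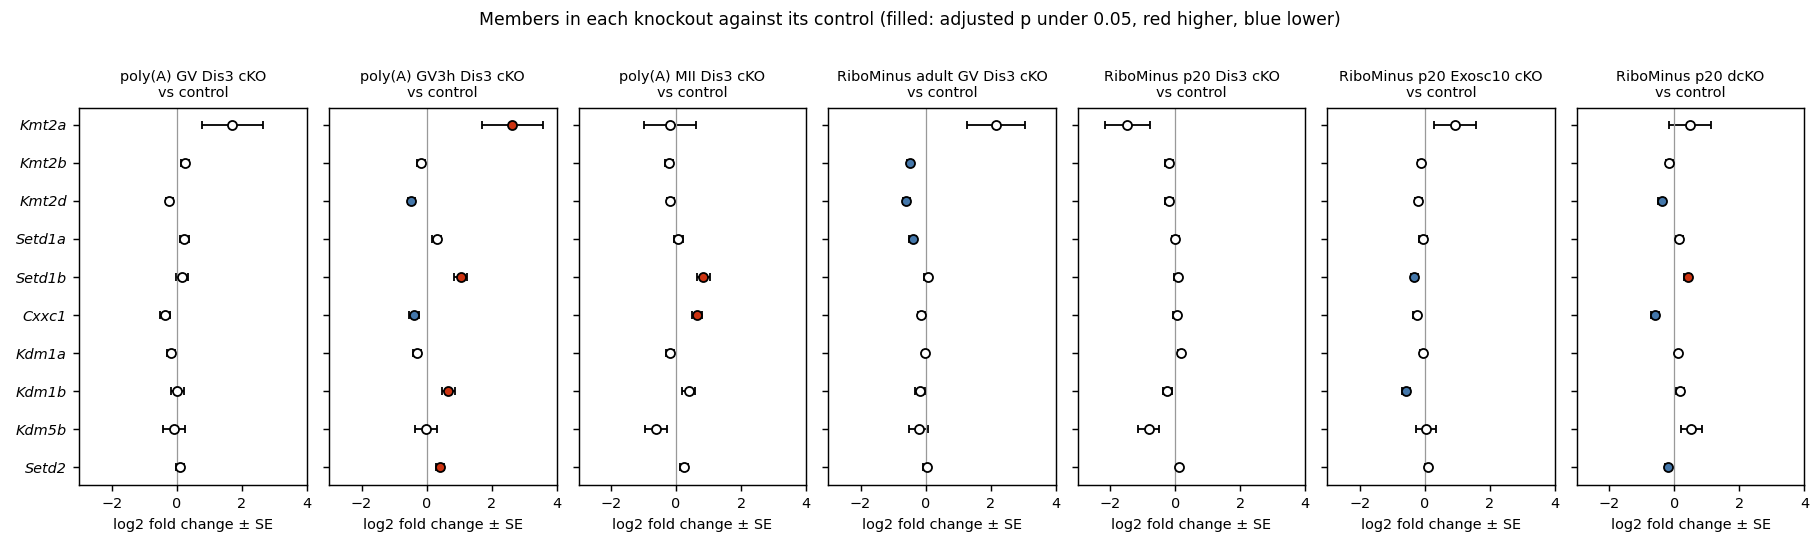
Log2 fold change of each member (horizontal axes) with its SE as error bar in the 7 comparisons of a knockout with its control, filled where the adjusted p was under 0.05 (red higher, blue lower). Most filled points lie at GV3h (6 members, beside 38.6% of all genes called) and in dcKO (4 members, beside 53.7%).

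Among the H3K4 writers, Kmt2a (chr9:44803355-44881352), which codes for a methyltransferase of the trithorax group, was uneven between oocytes and rose in GV3h Dis3 cKO. The lowest, median and highest values were 0.117, 0.9 and 3.71 CPM in 8 GV3h controls and 0, 9.01 and 26.1 CPM in 16 GV3h Dis3 cKO oocytes. Of the knockout oocytes, 10 lay above every control, and 2 lay below every control, so the groups overlapped. The log2 fold change was 2.64 (SE 0.937, adjusted p = 0.0202). GV values reached 21.6 CPM in Dis3 cKO against 2.31 CPM in control, and the difference did not pass, at 1.70 (SE 0.932, adjusted p = 0.199). In MII Dis3 cKO 5 of 16 libraries held no Kmt2a count and 1 reached 45.1 CPM, where the control had a median of 6.22 CPM. Adult RiboMinus Dis3 cKO oocytes held 1.3, 1.64 and 52.4 CPM (lowest, median and highest) against 0, 2.28 and 6.22 CPM in control. Only 2 adult knockout libraries, both with title tag AM1713, lay above all controls, and the mean was 20.1 ± 23.2 CPM (SD, n = 4) for that tag and 1.48 ± 0.181 CPM for tag AM1757. The adult difference of 2.17 (SE 0.889, adjusted p = 0.0754) did not pass and was 0.99 (adjusted p = 0.377) without the highest library. The lncRNA Gm39326 overlaps Kmt2a in RefSeq, and reads shared by both cannot be told apart, since no source used here says whether counting was stranded.

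Kmt2b (chr7:30568855-30589056), whose enzyme lays down most H3K4 trimethylation of growing oocytes, fell in adult Dis3 cKO oocytes and did not pass in the 6 other knockout comparisons. Adult RiboMinus values ran from 302 over a median of 325 to 415 CPM in control and from 195 over 225 to 299 CPM in Dis3 cKO. All 8 knockout oocytes lay below all 8 controls, in both title tags. The fold change was -0.49 (SE 0.096, adjusted p = 0.000904), and with counts summed per title tag (2 sums a group) it was -0.53 (adjusted p = 0.14); in that fit 0 of all genes passed. In poly(A) GV oocytes the estimate had the opposite sign, at 0.24 (SE 0.129, adjusted p = 0.179), and did not pass. Means there were 51.3 CPM in Dis3 cKO and 43.3 CPM in control, with 12 of 15 knockout oocytes above the control mean. The estimate was -0.18 at GV3h and -0.21 at MII. The difference between the assays was not tested. At p20 the means were 307 ± 24.9 CPM in control, 269 ± 38 in Dis3 cKO, 285 ± 56.3 in Exosc10 cKO and 275 ± 41.9 in dcKO (SD, n = 8 each), and these groups overlapped. Whether the effect of Dis3 loss on Kmt2b differs between adult and p20 was tested as an interaction, which gave -0.32 (SE 0.151, adjusted p = 0.189). Kmt2b is overlapped by the lncRNA Gm32082.

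Kmt2d (chr15:98831669-98874077), which codes for the enhancer H3K4 methyltransferase, fell in GV3h and adult Dis3 cKO and in p20 dcKO, and with TMM its estimate was below 0 in all 7 knockout comparisons, while with ERCC scaling it was above 0 at MII (0.20, adjusted p = 0.407). In GV3h oocytes the lowest, median and highest levels were 332, 389 and 432 CPM in control and 180.4, 288 and 330.3 CPM in Dis3 cKO. All 16 knockout oocytes lay below the lowest control. The log2 fold change was -0.47 (SE 0.105, adjusted p = 0.000197). Adult RiboMinus values were 1072, 1252 and 1404 CPM in control and 546, 827 and 1014 CPM in Dis3 cKO, again without overlap, and the fold change was -0.59 (SE 0.0971, adjusted p = 0.000193). Summing counts per title tag gave -0.62 (adjusted p = 0.135). In p20 oocytes dcKO held 755, 1133 and 1235 CPM against 1264, 1397 and 1601 CPM in control. The 8 dcKO oocytes lay below every control, at -0.39 (SE 0.115, adjusted p = 0.00441); with scaling by ERCC counts it was -0.44 (adjusted p = 0.125). The p20 single knockouts had means of 1244 ± 181 CPM (Dis3) and 1239 ± 268 CPM (Exosc10), between control (1418 ± 109) and dcKO (1073 ± 161), and neither passed.

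Setd1a (chr7:127777389-127800122), a H3K4 trimethylating enzyme, fell in adult Dis3 cKO alone among the 7 knockout comparisons. Adult values were 90.9, 103 and 112 CPM in control and 62.7, 72.6 and 95.1 CPM in Dis3 cKO (lowest, median, highest). Of the 8 knockout oocytes, 6 lay below every control and the other two overlapped with them. The fold change was -0.40 (SE 0.0951, adjusted p = 0.00396), or -0.45 (adjusted p = 0.177) with sums per title tag. In poly(A) GV oocytes the estimate had the opposite sign, at 0.22 (SE 0.134, adjusted p = 0.248), and did not pass. Means there were 41.6 CPM in Dis3 cKO and 35.7 CPM in control, with 13 of 15 knockout oocytes above the control mean. GV3h Dis3 cKO oocytes had 48.3 ± 5.65 CPM (n = 16) against 38.9 ± 6.58 CPM in control (n = 8), with all 16 above the control mean, and the difference of 0.31 (SE 0.132, adjusted p = 0.0544) did not pass with edgeR. DESeq2 gave 0.30 (adjusted p = 0.049) for it. Within p20 the group means lay between 98.1 CPM (Exosc10 cKO) and 112 CPM (dcKO), and no knockout passed against control.

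Setd1b (chr5:123142040-123168630), which codes for the close relative of SETD1A, was the member that passed most often: it rose in GV3h and MII Dis3 cKO and in p20 dcKO, and fell in p20 Exosc10 cKO. GV3h oocytes held 11.2, 14.4 and 17.9 CPM in control and 17.2, 27.7 and 50.5 CPM in Dis3 cKO. Of 16 knockout oocytes, 15 lay above the highest control. The log2 fold change was 1.05 (SE 0.194, adjusted p = 9.87e-06), and with ERCC scaling it was 1.10 (adjusted p = 0.0033). Eggs at MII held 6.66, 10.1 and 16.6 CPM in control and 7.83, 17 and 30.4 CPM in Dis3 cKO, with 8 of 16 knockout eggs above every control. The MII fold change was 0.83 (SE 0.194, adjusted p = 0.000326), and 0.89 (adjusted p = 7.59e-05) without library 15. In the same comparison the summed granulosa and cumulus markers were lower in Dis3 cKO eggs (51.7 to 84 against 85.9 to 129 CPM), as was Cyp19a1 among them (6.53 to 39.6 against 45 to 71.6 CPM) but not the mean of Nr5a2, and their part in this result was not tested. At GV the groups had 21.7 ± 7.93 CPM in control and 24.3 ± 5.81 CPM in Dis3 cKO, a difference of 0.16 (SE 0.188, adjusted p = 0.605). Tested directly, the Dis3 effect at GV3h minus that at GV was 0.89 (SE 0.264, adjusted p = 0.0535), which did not pass, as for 10 of 10 members beside 2.04% (1.37% higher, 0.667% lower) of all genes (Kmt2b, Setd1b and Kdm1b had an unadjusted p under 0.05, and DESeq2 called 1); without GV control library 1 it was 0.95 (adjusted p = 0.0274). Of all genes called, 239 of 355 were higher with TMM and 216 of 240 with ERCC scaling for this difference and 1613 of 2287 were higher with TMM and 5116 of 5237 with ERCC scaling for the one between MII and GV. The MII minus GV difference in effect was 0.67 (SE 0.266, adjusted p = 0.0782), and 0.76 (adjusted p = 0.044) without that library, 0.80 (adjusted p = 0.0372) without MII control 1 and 0.73 (adjusted p = 0.0401) without MII Dis3 cKO 15.

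In p20 RiboMinus oocytes the Setd1b levels were 241, 286 and 327 CPM in control, 234, 312 and 335 CPM in Dis3 cKO, 171, 230.3 and 298 CPM in Exosc10 cKO and 284, 397 and 451 CPM in dcKO (lowest, median and highest of 8). Exosc10 cKO oocytes were lowest, with 6 of 8 below every control, and dcKO oocytes highest, with 6 of 8 above every control. Against control the fold changes were 0.08 (SE 0.103, adjusted p = 0.743) for Dis3 cKO, which did not pass, -0.32 (SE 0.103, adjusted p = 0.0472) for Exosc10 cKO and 0.41 (SE 0.103, adjusted p = 0.00101) for dcKO. The Exosc10 result ended without Exosc10 cKO library 2_4, at -0.27 (adjusted p = 0.104), and without control library 1_4, at -0.32 (adjusted p = 0.0694). It also ended with ERCC scaling (-0.30, adjusted p = 0.706), DESeq2 size factors (-0.32, adjusted p = 0.0521), no filter (-0.32, adjusted p = 0.0737) and sums per title tag (-0.33, adjusted p = 0.326), and the dcKO result with ERCC scaling (0.32, adjusted p = 0.252). Setd1b in dcKO exceeded the sum of both single effects by 0.65 (SE 0.145, adjusted p = 0.000847) on the log2 scale. Adult oocytes had 224 ± 20.8 CPM in control and 231 ± 44 CPM in Dis3 cKO, and the difference did not pass.

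Cxxc1, on chromosome 18, the CG-binding subunit of the SETD1 complexes, fell in GV3h Dis3 cKO, rose in MII Dis3 cKO and fell in p20 dcKO. The lowest, median and highest levels at GV3h were 37, 57.4 and 73.6 CPM in control and 37.5, 42.9 and 49.4 CPM in Dis3 cKO. Every knockout oocyte lay below the control mean, and all lay within the range of the controls. Its fold change was -0.38 (SE 0.149, adjusted p = 0.0346), and it was -0.44 (adjusted p = 0.16) with ERCC scaling, -0.39 (adjusted p = 0.0531) without a filter on low counts and -0.33 (adjusted p = 0.0921) with the replicate number as a block. At GV the levels were 37.7, 50.6 and 54.6 CPM in control and 22, 35.3 and 50.2 CPM in Dis3 cKO, with 8 of 15 knockout oocytes below every control, and the difference was -0.38 (SE 0.151, adjusted p = 0.0652); without GV control library 1 it was -0.43 (adjusted p = 0.0454). MII eggs held 28.2, 47.8 and 63.7 CPM in control and 21.7, 73.5 and 104 CPM in Dis3 cKO. Of 16 knockout eggs, 12 lay above every control and 1, library 15, lay below all of them. The MII fold change was 0.65 (SE 0.155, adjusted p = 0.000471) with library 15 and 0.71 (adjusted p = 1.32e-05) without it. The granulosa and cumulus marker values given for Setd1b at MII (51.7 to 84 against 85.9 to 129 CPM) hold for this comparison too. The Dis3 effect at MII minus that at GV was 1.02 (SE 0.215, adjusted p = 0.00049), and 1.09 (adjusted p = 1.49e-05) without library 15. With TMM, edgeR and all libraries Cxxc1 was the one member to pass this test, beside 13.2% (9.28% higher, 3.88% lower) of all genes. More members passed with ERCC scaling, with DESeq2 and with some single libraries left out.

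At p20 Cxxc1 was lowest in dcKO. Levels there were 33.9, 46.1 and 64.9 CPM in dcKO and 58.5, 74.1 and 80.5 CPM in control, and 6 of 8 dcKO oocytes lay below every control. The fold change was -0.59 (SE 0.114, adjusted p = 4.14e-05), with -0.64 (adjusted p = 0.00786) under ERCC scaling. Dis3 cKO (74.2 ± 6.24 CPM) and Exosc10 cKO (61 ± 9.62 CPM) did not pass against control (72.1 ± 7.51 CPM). Of the 2 contrasts of dcKO with a single knockout, the one with Dis3 cKO gave -0.64 (SE 0.114, adjusted p = 1.89e-05) and the one with Exosc10 cKO -0.35 (SE 0.113, adjusted p = 0.0105), while the departure from the sum of single effects, -0.40 (SE 0.16, adjusted p = 0.0567), did not pass.

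Of the H3K4 demethylases, Kdm1a (chr4:136550533-136602787), which acts on mono- and dimethylated H3K4, passed in 0 of 7 knockout comparisons. Its estimates ran from -0.28 at GV3h to 0.18 in p20 Dis3 cKO. GV3h means were 51.8 ± 6.32 CPM in control and 42.5 ± 7.62 CPM in Dis3 cKO, with 8 of 16 knockout oocytes below every control, and the test gave -0.28 (SE 0.123, adjusted p = 0.06). DESeq2 gave -0.29 (adjusted p = 0.0454) for that comparison. RiboMinus means of the 6 groups lay between 84.8 CPM (p20 Exosc10 cKO) and 105 CPM (adult control). The gene Luzp1 overlaps Kdm1a in RefSeq.

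Kdm1b (chr13:47043373-47085279), the H3K4 demethylase that growing oocytes use at imprinted regions, rose in GV3h Dis3 cKO and fell in p20 Exosc10 cKO. GV3h oocytes held 144, 238 and 296 CPM in control and 179.9, 350.4 and 557 CPM in Dis3 cKO, and 14 of 16 knockout oocytes lay above every control. The fold change was 0.66 (SE 0.201, adjusted p = 0.00638), and 0.67 (adjusted p = 0.0753) with ERCC scaling. GV oocytes varied widely, from 93.2 to 330.1 CPM in control and from 81.4 to 366 CPM in Dis3 cKO, and their difference was 0.01 (SE 0.198, adjusted p = 0.973). Within the Dis3 cKO, Kdm1b was the one member that rose from GV to GV3h with TMM, at 0.79 (SE 0.164, adjusted p = 0.00036), beside 17.3% (7.42% higher, 9.88% lower) of all genes. With ERCC scaling more members passed, beside 37% of all genes. Of the genes called, 42.9% were higher with TMM and 97.4% with ERCC scaling. For Kdm1b, controls over the same stages gave 0.14 (SE 0.226, adjusted p = 0.821). The test of the difference in Dis3 effect on Kdm1b gave 0.65 (SE 0.279, adjusted p = 0.241), which did not pass.

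p20 levels of Kdm1b were 376, 595 and 670.3 CPM in control, 399, 468 and 568 CPM in Dis3 cKO, 259, 397 and 453 CPM in Exosc10 cKO and 505, 613 and 840.4 CPM in dcKO. All 8 Exosc10 cKO oocytes lay below the control mean and 3 below every control, whereas the dcKO oocytes lay above all Exosc10 cKO oocytes. Against control the fold changes were -0.58 (SE 0.13, adjusted p = 0.00318) for Exosc10 cKO, -0.24 (SE 0.13, adjusted p = 0.308) for Dis3 cKO and 0.18 (SE 0.13, adjusted p = 0.239) for dcKO, and the Dis3 cKO and dcKO values did not pass. The Exosc10 effect was -0.59 (adjusted p = 0.201) with ERCC scaling and -0.60 (adjusted p = 0.082) with sums per title tag. In dcKO Kdm1b exceeded the sum of both single effects by 1.01 (SE 0.184, adjusted p = 9.56e-05) and Exosc10 cKO by 0.77 (SE 0.13, adjusted p = 1.07e-05). The neighbouring gene Dek overlaps Kdm1b in RefSeq.

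Kdm5b (chr1:134560178-134632878), which acts on di- and trimethylated H3K4, passed in 0 of 7 knockout comparisons. Medians were 9.71 CPM in GV control, 5.94 in GV3h control and 6.92 in MII control, and 6.26, 5.74 and 4.61 CPM in the matching Dis3 cKO groups. One GV Dis3 cKO oocyte, library 6, held 44.1 CPM. p20 values were 1.52, 3.08 and 9.4 CPM in Dis3 cKO and 4.18, 9.17 and 15.8 CPM in dcKO, lowest and highest of the 4 genotypes by median. Only 3 dcKO oocytes lay above every Dis3 cKO oocyte, and all 8 lay above the Dis3 cKO mean. The dcKO differed from Dis3 cKO by 1.34 (SE 0.332, adjusted p = 0.001) and from the sum of single effects by 1.30 (SE 0.46, adjusted p = 0.0285), while the difference of Dis3 cKO from control was -0.82 (SE 0.329, adjusted p = 0.136), or -1.15 (adjusted p = 0.0204) without Dis3 cKO library 1_4. The gene Mgat4e overlaps Kdm5b in RefSeq.

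Setd2 (chr9:110532500-110618633), whose enzyme writes H3K36 trimethylation, rose in GV3h Dis3 cKO and fell slightly in p20 dcKO. The lowest, median and highest GV3h levels were 152, 181 and 210.3 CPM in control and 196, 224 and 303 CPM in Dis3 cKO. All 16 knockout oocytes lay above the control mean and 13 above every control. The fold change was 0.41 (SE 0.129, adjusted p = 0.00863), and 0.35 (adjusted p = 0.207) with ERCC scaling. MII means were 268 ± 82.2 CPM in control and 318 ± 54.7 CPM in Dis3 cKO, a difference of 0.25 (SE 0.127, adjusted p = 0.11) that passed without MII control library 8, at 0.40 (adjusted p = 0.00878). p20 dcKO oocytes held 358, 475 and 528 CPM, Dis3 cKO oocytes 562, 590.3 and 642 CPM, Exosc10 cKO oocytes 439, 591 and 755 CPM and controls 498, 541 and 610.3 CPM. All 8 dcKO oocytes lay below all 8 Dis3 cKO oocytes, and 6 lay below every control. Against control dcKO gave -0.21 (SE 0.0849, adjusted p = 0.0397), which did not pass with ERCC scaling (-0.27, adjusted p = 0.289), with sums per title tag (-0.24, adjusted p = 0.0969) or with DESeq2 (-0.17, adjusted p = 0.0811). The contrast with Dis3 cKO gave -0.33 (SE 0.085, adjusted p = 0.00163), that with Exosc10 cKO -0.31 (SE 0.0849, adjusted p = 0.0028), and the departure from the sum of single effects -0.43 (SE 0.12, adjusted p = 0.0062).

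Set directly against the single knockouts at p20, dcKO oocytes differed in 6 of 10 members from Dis3 cKO, beside 51.5% (26.0% higher, 25.5% lower) of all genes, and in 4 of 10 from Exosc10 cKO, beside 49.2% (24.2% higher, 25.0% lower). Kdm1b and Setd1b were higher and Cxxc1 and Setd2 lower in dcKO than in either single knockout; both contrasts share the dcKO libraries. With ERCC scaling Cxxc1 and Setd2 did not pass in either, with Setd2 at -0.07 (adjusted p = 0.821) against Dis3 cKO. With sums per title tag the contrasts with Dis3 cKO did not pass for Setd1b (0.29, adjusted p = 0.112) or Kdm1b (0.39, adjusted p = 0.0527), nor that with Exosc10 cKO for Cxxc1 (-0.37, adjusted p = 0.14). Over all genes called, 50.5% were higher with TMM and 73.1% with ERCC scaling against Dis3 cKO and 46.9% were higher with TMM and 75.1% with ERCC scaling for the departure from the sum of single effects. Kmt2a and Kdm5b were higher in dcKO than in Dis3 cKO. Kmt2a had 0.0825, 2.44 and 9.69 CPM in dcKO and 0, 0.888 and 1.73 CPM in Dis3 cKO, and the contrast was 1.94 (SE 0.689, adjusted p = 0.0185). In 4 members dcKO departed from the sum of single effects, beside 31.4% (14.7% higher, 16.7% lower) of all genes: Kdm1b, Kdm5b and Setd1b upwards and Setd2 downwards. With counts summed per title tag, Kdm1b alone of these 4 passed, at 0.99 (adjusted p = 0.0212), and with ERCC scaling Kdm1b (1.24, adjusted p = 0.00642) and Kdm5b (1.65, adjusted p = 0.0263). Between adult and p20 the effect of Dis3 loss differed for 1 member, Kmt2a (3.59, SE 1.12, adjusted p = 0.0319), beside 9.32% (5.34% higher, 3.98% lower) of all genes, and this ended without adult Dis3 cKO library AM1713_3, at 2.43 (adjusted p = 0.155), with ERCC scaling (3.57, adjusted p = 0.0787) and with sums per title tag (3.48, adjusted p = 0.316).

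Between stages the direction of change depended on the scaling. GV3h and MII were read in poly(A) libraries only, with no RiboMinus group of these stages. A change in poly(A) tail and a change in RNA amount therefore cannot be told apart from GV to GV3h or MII. Across maturation from GV to MII, 7 of 10 members passed in controls with TMM, 6 higher and 1 lower, beside 58.5% (22.7% higher, 35.8% lower) of all genes. The median of all genes was -0.27 with TMM and -2.12 with ERCC scaling, which counts each gene against the RNA added to each lysate. Of the genes called, 38.8% were higher with TMM and 0.38% with ERCC scaling. The members' own median was 0.56 with TMM, and its difference from the median of all genes was not tested. Kmt2d stood out most clearly, with 235, 308 and 358 CPM in GV and 414, 557 and 818 CPM in MII controls (lowest, median, highest), and all 8 eggs lay above all 8 GV oocytes. Its change was 0.92 (SE 0.124, adjusted p = 1.15e-09) with TMM and -0.94 (adjusted p = 9.12e-05) with ERCC scaling, that is, lower against the added RNA and higher as a share of the counts. Kdm1a (0.87), Kmt2b (0.78) and Setd1a (0.76) likewise rose with TMM and fell with ERCC scaling. Setd1b fell under both, with 11, 20.8 and 33.4 CPM in GV and 6.66, 10.1 and 16.6 CPM in MII controls, at -1.05 (SE 0.218, adjusted p = 2.65e-05) and -2.93 (adjusted p = 1.53e-11). Kmt2a (2.46, SE 1.02, adjusted p = 0.0333) and Setd2 (0.37, SE 0.146, adjusted p = 0.0263) passed with TMM; without MII control library 8 they were at 2.31 (adjusted p = 0.0517) and 0.22 (adjusted p = 0.181), and with ERCC scaling at 0.61 (adjusted p = 0.561) and -1.52 (adjusted p = 6.7e-08). From GV to GV3h 0 of 10 members passed in controls, beside 2.71% (1.14% higher, 1.56% lower) of all genes (of those called, 42.3% were higher with TMM and 55.9% with ERCC scaling). Kmt2d and Setd1b had an unadjusted p under 0.05 and DESeq2 called 0, while the fit of only the groups compared called 1 (beside 15.1% of all genes).

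The same maturation in Dis3 cKO changed 9 of 10 members with TMM, 7 higher and 2 lower, beside 63.3% (24.8% higher, 38.5% lower) of all genes, where all genes had a median of -0.26 with TMM and -1.50 with ERCC scaling, and of those called 39.2% were higher with TMM and 1.56% with ERCC scaling. Cxxc1 levels (lowest, median, highest) were 22, 35.3 and 50.2 CPM in GV and 21.7, 73.5 and 104 CPM in MII Dis3 cKO, and 15 of 16 eggs lay above every GV oocyte. Cxxc1 rose by 1.02 (SE 0.127, adjusted p = 6.88e-11) with TMM but was -0.14 (adjusted p = 0.491) with ERCC scaling, against 0.00 (SE 0.174, adjusted p = 0.994) and -1.85 (adjusted p = 2.01e-08) in controls. Kmt2d rose by 0.98 (SE 0.0893, adjusted p = 5.14e-16), with all 16 eggs above all GV oocytes, but was -0.24 (adjusted p = 0.141) with ERCC scaling. Kdm5b fell under both scalings, at -0.95 (SE 0.285, adjusted p = 0.00293) and -2.09 (adjusted p = 3.74e-08). Setd1b fell by 0.38 with TMM (adjusted p = 0.0276), which did not pass without MII Dis3 cKO library 15, at -0.32 (adjusted p = 0.0515). The other called members, Kdm1a, Setd1a, Kdm1b, Setd2 and Kmt2b, rose by 0.33 to 0.86 with TMM and fell with ERCC scaling.

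Growth from p20 to adult GV, in RiboMinus controls, moved 5 of 10 members with TMM, beside 19.1% (8.69% higher, 10.4% lower) of 17267 genes, where the median of all genes was 0.00 with TMM and -1.69 with ERCC scaling, and of those called 45.6% were higher with TMM and 0.484% with ERCC scaling. Kdm1b fell most, from 376, 595 and 670.3 CPM at p20 to 216, 316 and 398 CPM in adult controls, with 7 of 8 adult oocytes below every p20 oocyte. Its change was -0.88 (SE 0.135, adjusted p = 5.17e-06), and -0.86 (adjusted p = 0.016) with sums per title tag. Setd2 fell from 546 ± 38.7 to 377 ± 73.6 CPM, without overlap between the groups, at -0.53 (SE 0.0962, adjusted p = 7.49e-05), and -0.50 (adjusted p = 0.063) with sums per title tag. Setd1b fell by 0.36 (SE 0.104, adjusted p = 0.0117) on the log2 scale. Cxxc1 (0.31, SE 0.109, adjusted p = 0.0375) and Kdm1a (0.25, SE 0.085, adjusted p = 0.0308) rose with TMM and fell with ERCC scaling. With sums per title tag Setd1b, Cxxc1 and Kdm1a did not pass, and without a filter on low counts not all of the 5 members passed. Adult and p20 libraries differ in title tags as well as in age, so tag and age cannot be told apart. Median gene counts per ERCC count were 397 in adult control and 1269 in p20 control. The part of ERCC dose or preparation in this difference, and so in the falls with ERCC scaling, was not tested.

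**Figure D4:**
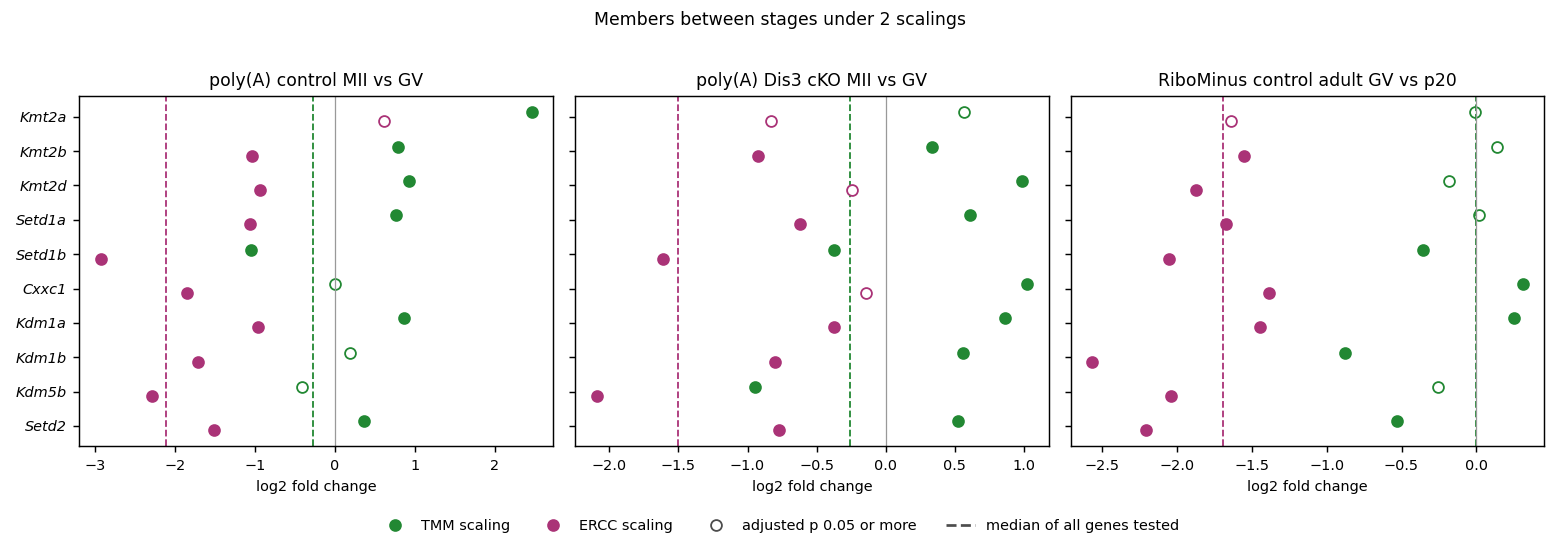
Log2 fold change of each member (horizontal axes) from GV to MII in controls and in Dis3 cKO and from p20 to adult in controls, with TMM scaling (green) and ERCC scaling (purple), open where the adjusted p was 0.05 or more. Dashed lines mark the median of all genes, and in both GV to MII panels 8 of 10 members lie to the right of the line of the same scaling.

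The wider set of 48 genes listed for H3K4 and H3K36 methylation, readers and partners among them, was described in the same comparisons. The roles by which they are counted are those of the list, are not settled for every gene, and were not tested here. At GV 2 rose and 3 fell of 48 tested (10.4% called, beside 21.9% of all genes), at GV3h 10 and 10 (41.7% beside 38.6%), and at MII 9 and 10 (39.6% beside 42.1%), with list medians of 0.01, -0.02 and -0.02 where all genes had 0.04, 0.07 and 0.16. In adult RiboMinus data 6 rose and 13 fell of 46 (41.3% beside 28.1%), at p20 2 rose and 1 fell of 47 in Dis3 cKO and likewise in Exosc10 cKO (6.4% each, beside 7.37% and 7.45%), and in dcKO 16 rose and 9 fell of 47 (53.2% beside 53.7%). Their medians were -0.05, 0.05, 0.02 and 0.02, beside 0.03, 0.00, 0.01 and -0.01 for all genes. By role, in dcKO, where 26.6% of all genes rose and 27.1% fell, 5 of 7 genes for H3K36 demethylation rose and 1 fell (median 1.29), 3 of 4 listed for H3K4 demethylation rose and 1 fell (Kdm2b, listed there although it also acts on H3K36), 3 of 9 H3K36 writers rose and 1 fell, 3 of 16 H3K4 writers and subunits rose and 2 fell, and 2 of 11 H3K36 readers and partners rose and 4 fell. From GV to MII in controls 13 of 17 H3K4 writers and subunits rose and 3 fell with TMM (median 0.76), beside 22.7% of all genes higher and 35.8% lower (median -0.27), whereas 0 rose and 15 fell with ERCC scaling (median -1.09), beside 15217 of 17389 genes lower under that scaling (median -2.12). With ERCC scaling 10 of 47 rose and 7 fell in dcKO, of them 4 of 7 genes for H3K36 demethylation, all higher, beside 2833 of 15882 genes higher and 3238 lower.

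Kdm2b, a CG-binding demethylase known for acting on both H3K4 and H3K36, fell in all 7 knockout comparisons, and with ERCC scaling in 6, all but Exosc10 cKO (-0.40, adjusted p = 0.354). Its means were 224 ± 24.3 CPM in GV3h control and 83.4 ± 17.5 CPM in GV3h Dis3 cKO, at -1.42 (SE 0.149, adjusted p = 4.61e-12). In p20 oocytes it had 529 ± 64.5 CPM in control, 358 ± 60.1 in Dis3 cKO, 392 ± 67.1 in Exosc10 cKO and 222 ± 36.3 in dcKO. The fold changes against control were -0.56 (SE 0.109, adjusted p = 0.000511), -0.43 (SE 0.108, adjusted p = 0.00907) and -1.24 (SE 0.11, adjusted p = 5.67e-11). Kmt2e, a relative of the KMT2 writers without known methyltransferase activity, rose in 5 of 7 comparisons, the most in dcKO, from 7.86 ± 3.03 to 40.8 ± 9.64 CPM, at 2.38 (SE 0.253, adjusted p = 2.17e-09); with ERCC scaling it was higher in the same 5 and passed in 3 of them, not at GV (0.23, adjusted p = 0.509) or in adult Dis3 cKO (0.36, adjusted p = 0.293). Kdm4c, a demethylase of H3K9 and H3K36, rose in 5 of 7, from 0.0667 ± 0.0763 to 1.08 ± 0.7 CPM at MII, at 3.77 (SE 0.726, adjusted p = 1.92e-05), a fold that depends on few counts in control. With ERCC scaling Kdm4c passed in 3 of the 5, not at GV (1.38, adjusted p = 0.104) or in adult Dis3 cKO (0.68, adjusted p = 0.272). Nsd1, which writes H3K36 dimethylation, fell in GV3h Dis3 cKO (-0.65, SE 0.11, adjusted p = 1.88e-06), in adult Dis3 cKO (-0.31, SE 0.076, adjusted p = 0.00546) and in dcKO (-1.17, SE 0.184, adjusted p = 2.38e-06). Kdm5a, the relative of KDM5B, was higher in dcKO than in Exosc10 cKO (2.15, SE 0.259, adjusted p = 3.9e-08), and dcKO exceeded the sum of single effects for it by 1.96 (SE 0.358, adjusted p = 9.52e-05). Riox1 changed by 4.50 (SE 0.776, adjusted p = 9.76e-06) in dcKO from 0.623 ± 0.96 CPM in control, a level at which the fitted fold depends on few counts. Dpy30, a shared subunit of the H3K4 writers, rose from GV to MII in controls by 1.80 (SE 0.149, adjusted p = 1.91e-17) with TMM and was -0.04, adjusted p = 0.841 with ERCC scaling. The calls named for Nsd1, Kdm5a and Riox1 passed with ERCC scaling too, in the same direction.

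The 17 other genes that the rule for this wider set named are given by log2 fold change with TMM and then with ERCC scaling. At GV the DNA methyltransferase Dnmt3a fell in Dis3 cKO, at -0.28 (adjusted p = 0.00571) and -0.56 (adjusted p = 0.0132). At MII Setmar rose by 1.14 (adjusted p = 0.000137) with TMM and was called higher with ERCC scaling too, and Ash2l, a core subunit of the H3K4 writers, fell with TMM only, at -0.65 (adjusted p = 0.000464) and -0.19 (adjusted p = 0.542). In adult Dis3 cKO Dnmt3b fell, at -0.47 (adjusted p = 0.00382) and -1.01 (adjusted p = 0.00165). In p20 Dis3 cKO Morf4l1 gave 0.60 (adjusted p = 0.017) and 0.25 (adjusted p = 0.468) and Psip1, with opposite signs, 0.27 (adjusted p = 0.0379) and -0.05 (adjusted p = 0.878), and in Exosc10 cKO Bod1l gave 0.32 (adjusted p = 0.00297) and 0.33 (adjusted p = 0.494), all 3 called with TMM only. The MII minus GV difference in Dis3 effect passed under both scalings for Iws1, at 0.59 (adjusted p = 0.00326) and 1.22 (adjusted p = 0.000344), and with TMM only, with opposite signs, for Mtf2 (-0.52, adjusted p = 0.0188, and 0.16, adjusted p = 0.662) and Kmt2c (-0.42, adjusted p = 0.0169, and 0.14, adjusted p = 0.659). Kmt2c, a relative of Kmt2d, was also lower in dcKO than in Dis3 cKO with TMM, at -0.70 (adjusted p = 2.16e-05) and -0.40 (adjusted p = 0.175), and did not pass with ERCC scaling. Kdm4b, a demethylase of H3K9 and H3K36, exceeded the sum of single effects in dcKO, at 1.37 (adjusted p = 0.000538) and 1.53 (adjusted p = 0.00961), and fell from GV to MII in Dis3 cKO, at -2.50 (adjusted p = 5.91e-09) and -3.65 (adjusted p = 1.31e-11). Over the stages Bod1 from GV to MII in controls (1.47, adjusted p = 4.96e-13, and -0.35, adjusted p = 0.154) passed with TMM and was below 0 with ERCC scaling, and Phf1 in Dis3 cKO (1.26, adjusted p = 1.21e-24, and 0.02, adjusted p = 0.886) passed with TMM only. From GV to GV3h Men1, the menin subunit, rose in Dis3 cKO (0.70, adjusted p = 0.00337, and 1.08, adjusted p = 0.00123), while Phf19 (-0.56, adjusted p = 0.0329, and -0.09, adjusted p = 0.784) passed with TMM only. From p20 to adult Morf4l1 (0.78, adjusted p = 0.000241, and -0.94, adjusted p = 2.27e-05) and Zmynd11 (0.48, adjusted p = 0.00639, and -1.22, adjusted p = 9.01e-07) rose with TMM and fell with ERCC scaling. The adult minus p20 difference in Dis3 effect passed for Hcfc2 with TMM only, at 0.63 (adjusted p = 0.045) and 0.42 (adjusted p = 0.546).

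**Figure D5:**
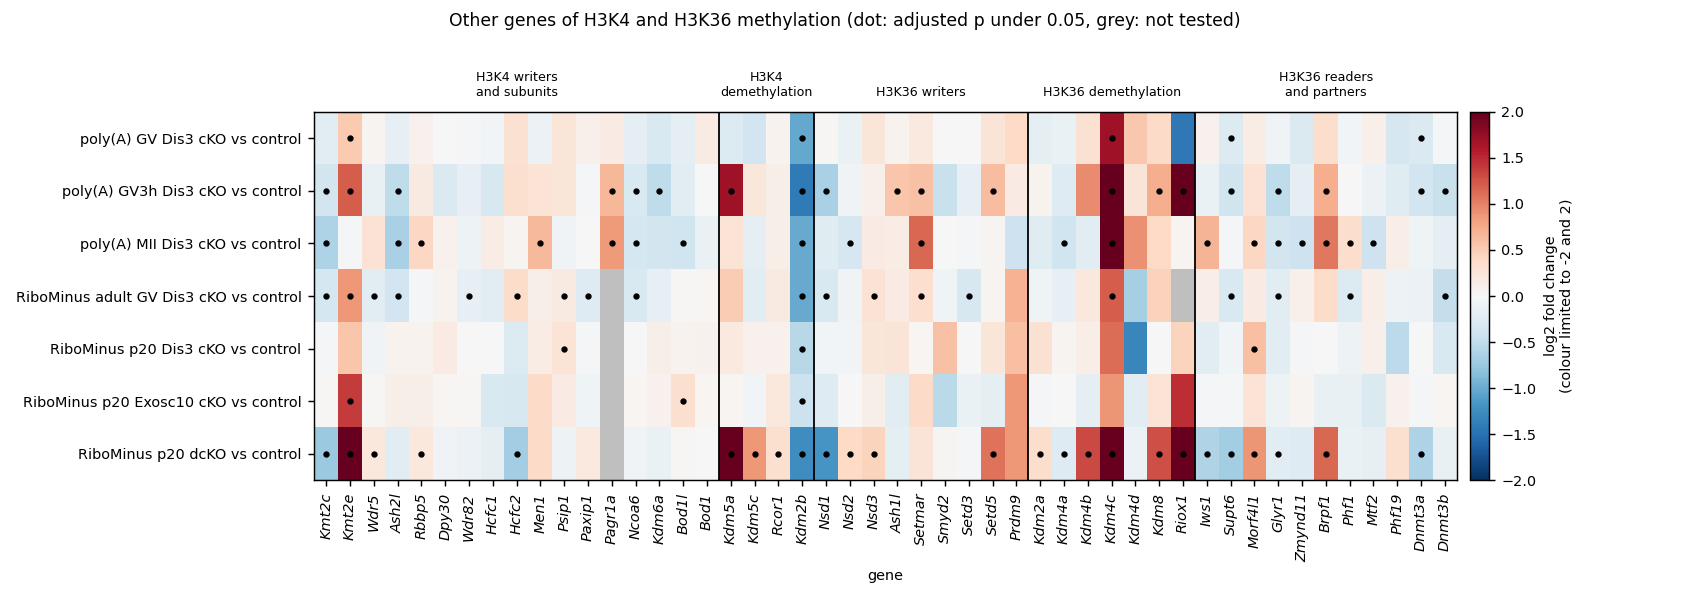
Log2 fold change (colour, limited to -2 and 2) of the 48 other genes of H3K4 and H3K36 methylation (columns, grouped by role) in the 7 comparisons of a knockout with its control (rows), with a dot where the adjusted p was under 0.05 and grey where a gene was not tested. Kdm2b has a dot in all 7 rows, all lower, and Kmt2e and Kdm4c have 5 each, all higher.

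Peaks of RNA polymerase II (Pol II) and of the repressive mark H3K27me3 were read within 1 kb of the starts of the 7 members with an entry, in CUT&Tag libraries of pooled oocytes with 3 peak lists per group, each called by the authors on its own library. Kdm1b had a Pol II peak in 0 of 3 adult control lists, 2 of 3 p20 control lists and 3 of 3 adult Dis3 cKO lists. Setd1a had one in 0 of 3, 2 of 3 and 2 of 3. The other 5 had none in the 9 Pol II lists. Over all genes the share with a Pol II peak was 2.9 to 5.3% in adult control, 9.0 to 10.8% in p20 control and 4.6 to 14.6% in adult Dis3 cKO lists, and the lists held 19697 to 35843, 74287 to 82446 and 30311 to 122606 peaks. The lists thus differ in how many peaks were called, and the part of this in the members' counts was not tested. Over members and lists the Pol II count moved from 0 to 2 in adult control with a 2 kb window, beside 4.3 to 7.8% of all genes. In adult Dis3 cKO it moved from 5 to 3 with peaks above the list's median signal, beside 2.8 to 9.3% of all genes. Kmt2a had an H3K27me3 peak in 2 of 3 adult control, 3 of 3 p20 control, 0 of 3 adult Dis3 cKO and 2 of 3 p20 dcKO lists. Kdm1a and Kdm5b had one in 1 of 3 adult Dis3 cKO lists each, and the other 4 members had none in the 12 H3K27me3 lists. Over all genes the share with an H3K27me3 peak lay between 18.4% and 33.7% of genes per list. These counts are a description over 3 lists a group, with no test.

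Beyond the members, a few genes ran most like them over the 12 group means, on the log2 scale, centred within each assay and compared among 15735 genes tested in both. Kmt2a, Setd1b and Kdm5b had the widest range of poly(A) group means of these log2 values, with 2.05, 1.51 and 1.17, and Kmt2d followed closely with 1.16. Mean CPM gives another order, since Kmt2d ran from 260.7 to 581.8 CPM, a wider fold than Kdm5b with 4.53 to 9.32 CPM. Setd1b ran most like Fchsd1 (r = 0.96) and Nkiras2 (r = 0.96), Kmt2a like Olfml2a (r = 0.90) and Nicn1 (r = 0.85), and Kdm5b like Acp1 (r = 0.87) and Sept10 (r = 0.86). The points share their libraries, so these values only describe likeness. Within groups, the 3 pairs among Kdm1b, Setd1b and Setd2 were computed out of all pairs of members, and Kdm1b with Setd1b is given in full, a choice made after values were seen; over all groups the other pairs ran from -0.85 to 0.90. Kdm1b and Setd1b ran together across single oocytes of the control groups other than MII, with r = 0.96 in 8 GV controls, 0.61 in 8 GV3h controls, 0.83 in 8 adult RiboMinus controls and 0.80 in 8 p20 controls, but -0.16 in 8 MII controls. Kdm1b with Setd2 was as high or nearly so in some of these groups, at 0.90 in GV, 0.90 in adult and 0.78 in p20 controls, and 0.24 in GV3h controls. In Dis3 cKO the values were 0.69 (15 GV), 0.79 (16 GV3h), -0.28 (16 MII) and 0.89 (8 adult RiboMinus), and in the p20 knockouts 0.23 (Dis3), 0.31 (Exosc10) and 0.21 (dcKO). Both values of a point come from 1 library and so share its depth and scaling.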

How the data were processed

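Single oocytes were sequenced, and per the submitters' processing notes reads were handled with cutadapt 2.5, FastQC 0.11.8, STAR 2.7.2a, SAMtools 1.9, HTSeq 0.9.1, R 3.5.1 and DESeq2 1.24.0 on build mm10; the annotation release and the use of strand in counting are not given in the sources used here. The deposited files hold whole-number counts per gene, without normalization, for 119 libraries, with ERCC RNAs listed among the IDs. Deposited peak lists (21, SEACR named in the notes) give a total signal for each peak, called by the authors per library from CUT&Tag reads sampled to equal numbers, per the labels' protocols; the signal is the authors' and was used only to filter peaks within a list.

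From the counts, ERCC rows were left out of library sizes, genes with low counts were filtered, and edgeR 4.0.16 in R 4.3.3 (TMM scaling, quasi-likelihood test, Benjamini-Hochberg adjustment over all genes tested, threshold 0.05) was fitted to all 6 poly(A) groups, to the adult groups or to the p20 groups; comparisons of adult with p20 used all 6 RiboMinus groups. The fits were tested on simulated data. Of changes of 1 on the log2 scale, 53.2% were recovered in the GV3h Dis3 cKO comparison and 60% in dcKO against control. Of changes of 0.5, 13.5% and 30.5% were recovered. The simulations changed 94 and 96 of 16885 genes by these amounts for GV3h, and 95 and 95 of 15422 for dcKO. In the data 38.6% and 53.7% of all genes were called, which makes the adjusted threshold less strict. The recovered shares therefore do not give how often such changes were missed in these data. Alternatives were DESeq2 1.42.0, DESeq2 size factors, ERCC scaling, no filter, sums per title tag, subsets of groups, the replicate block, and single libraries left out, most of these last chosen after seeing the data. Levels were not compared between genes. All 10 members are named; of the 48 other genes, those among the 2 largest rises and 2 largest falls called in any comparison are named, and likeness was read by Pearson r over 12 group means. Members and lists were chosen with earlier results of these data known. RefSeq positions and promoters are those of GRCm38.p6. The GV Dis3 cKO library with title number 9 and IgG samples were not analysed here.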

Additional observations from a re-analysis of the deposited data

Results flagged for a closer look

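Dixon's test for a single library far from the others was run for the 10 members in 9 groups of 8 libraries. Its 90 tests share libraries and singled out 9. The chance rate of about 1 in 20 holds for normally distributed values, and CPM of members with few counts, such as Kmt2a, were skewed. The number singled out can therefore not be set against that rate. MII control library 1 was high for 3 members, with 125 CPM for Kmt2b (nearest other library 76.4 CPM), 16.6 CPM for Setd1b (nearest other library 11.3 CPM) and 137 CPM for Kdm1a (nearest other library 100.2 CPM). MII control library 8 held 450.1 CPM for Setd2 (nearest other library 291 CPM). Kmt2a was singled out in 3 groups, where adult Dis3 cKO library AM1713_3 held 52.4 CPM for Kmt2a (nearest other library 21.1 CPM), p20 control library 1_4 held 9.95 CPM for Kmt2a (nearest other library 2.39 CPM) and p20 Exosc10 cKO library 1_3 held 15.3 CPM for Kmt2a (nearest other library 5.71 CPM). p20 Dis3 cKO library 1_4 held 9.4 CPM for Kdm5b (nearest other library 4.9 CPM). One library was low: p20 dcKO library 1_2 held 358 CPM for Setd2 (nearest other library 450.1 CPM).

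Effects of a knockout differed between groups, by a test of the difference itself, in 6 cases. The Dis3 effect on Cxxc1 at MII exceeded that at GV by 1.02 on the log2 scale, beside 13.2% of all genes called, and the Dis3 effect on Kmt2a in adult oocytes exceeded that at p20 by 3.59, beside 9.32% of all genes. The Kmt2a difference did not pass without library AM1713_3, with ERCC scaling or with counts summed per title tag. In p20 dcKO the departures from the sum of single effects were 0.65 for Setd1b, 1.01 for Kdm1b, 1.30 for Kdm5b and -0.43 for Setd2, beside 31.4% of all genes called. Setd1b and Setd2 did not pass with ERCC scaling, and Setd1b, Kdm5b and Setd2 did not with counts summed per title tag.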

How the results depend on the processing

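Of 1429 values recomputed for single members, 1316 kept their side of the threshold, 51 lost a call and 44 gained one in the same direction, and 18 changed sign while called under at least 1 of the settings compared, all 18 with ERCC scaling. Of the 1316, 68 changed sign and were called under neither setting, 29 of them with ERCC scaling and 6 with the replicate block. From GV to MII in controls these 18 included, as ERCC values, Kmt2b -1.04, Kmt2d -0.94, Setd1a -1.07, Cxxc1 -1.85, Kdm1a -0.97, Kdm1b -1.72 and Setd2 -1.52, of which Cxxc1 and Kdm1b were called with ERCC scaling alone. In Dis3 cKO they were Kmt2b -0.93, Kmt2d -0.24, Setd1a -0.62, Cxxc1 -0.14, Kdm1a -0.37, Kdm1b -0.80 and Setd2 -0.78, of which Kmt2d and Cxxc1 were called with TMM alone. From p20 to adult they were Kmt2b -1.55, Setd1a -1.67, Cxxc1 -1.38 and Kdm1a -1.45, of which Kmt2b and Setd1a were called with ERCC scaling alone. ERCC scaling also moved the number of members called from 0 to 1 at GV, 6 to 3 at GV3h, 2 to 4 at MII, 1 to 6 from GV to GV3h in Dis3 cKO, 1 to 4 for the MII minus GV difference in effect, 3 to 6 in adult Dis3 cKO, 0 to 1 in p20 Dis3 cKO, 2 to 0 in Exosc10 cKO, 4 to 1 in dcKO, 4 to 2 for dcKO against Exosc10 cKO, 4 to 2 for the departure from the sum, 5 to 9 from p20 to adult and 1 to 0 for the adult minus p20 difference. The shares of all genes called moved with it, in the same order from 21.9 to 20.6%, 38.6 to 28.2%, 42.1 to 41.9%, 17.3 to 37%, 13.2 to 30.1%, 28.1 to 44.6%, 7.37 to 6.09%, 7.45 to 2.29%, 53.7 to 38.2%, 49.2 to 31.6%, 31.4 to 13.6%, 19.1 to 86.1% and 9.32 to 3.38%. Sums per title tag moved the number of members called from 3 to 0 in adult Dis3 cKO, 2 to 0 in Exosc10 cKO, 4 to 1 for the departure from the sum, 5 to 1 from p20 to adult and 1 to 0 for the adult minus p20 difference. This fit has fewer samples, and called 0%, 0.832%, 6.25%, 1.04% and 0.307% of all genes in these comparisons. Calls also ended for Setd2 in dcKO against control, for Setd1b and Kdm1b in dcKO against Dis3 cKO and for Cxxc1 in dcKO against Exosc10 cKO. In these 31.8%, 28.5% and 26.6% of all genes were called. With only the groups compared the number of members called was 2 at GV (beside 27.3% of all genes), 1 from GV to GV3h in controls (15.1%), 2 in Dis3 cKO (29.6%) and 1 for the difference between these (5.02%). With title numbers 1 to 8 it was 2 from GV to GV3h in Dis3 cKO (12.7%) and 1 for the GV3h minus GV difference (2.8%). DESeq2 gave 1 for the GV3h minus GV (3.13%) and 2 for the MII minus GV difference (15.3%). In Exosc10 cKO it was 1 with DESeq2 size factors (7.47%) and 1 without a filter (3.07%), and from p20 to adult 3 without a filter (8.41%). With single libraries left out it ranged from 1 to 3 for the MII minus GV difference (12.4 to 15.5% of all genes), 0 to 1 for the GV3h minus GV difference (1.38 to 3.16%), 0 to 1 in p20 Dis3 cKO (5.95 to 6.35%), and was 1 in Exosc10 cKO (5.94 to 6.94%) and 1 at GV (20.6%); without GV3h Dis3 cKO library 16 none of 30 calls changed. Peak counts near members, over members and lists, moved from 2 to 0 for H3K27me3 in adult Dis3 cKO, 2 to 1 in dcKO and 5 to 3 for Pol II in adult Dis3 cKO with peaks above the median signal, where the shares of all genes with a peak moved from 25.9 to 29.9% to 18.6 to 21.8%, from 28.9 to 33.7% to 20.7 to 23.9% and from 4.6 to 14.6% to 2.8 to 9.3% over the lists of each group. They moved from 0 to 2 for Pol II in adult control with a 2 kb window, where these shares moved from 2.9 to 5.3% to 4.3 to 7.8%. The cause of these moves was not tested. The replicate block changed 1 of 150 calls, Cxxc1 at GV3h (-0.33, adjusted p = 0.0921). Deviations from the group means were also correlated over genes between same-numbered libraries of the groups compared. Of these pairs 0 to 4 per comparison had r over 0.1. The labels do not say what the numbers stand for, so a shared source of same-numbered libraries is not known. The planned levels per kilobase were not run. Kmt2a had 0 counts in up to 5 libraries of a group, and its log2 fold change at GV3h had a standard error of 0.937.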
